A study of Mus musculus with 6 samples.

Results

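Collagen chain genes encode the subunits of the collagens, and they were taken from the expression table of mouse oligodendrocyte precursor cells (OPCs) by their symbol, Col, a type number, a and a chain number. The rule found 44 genes among the 18211 of the table, and it used no measured value. OPCs are glia that later differentiate into the oligodendrocytes that make myelin, and these were taken at postnatal day 7 (P7) from C57BL/6 mice by immunopanning for Pdgfrα, a receptor that OPCs carry on their surface. All mice received tamoxifen by gavage on 4 consecutive days, from P4 to P7. The wildtype group held 3 libraries. In its results the paper describes the mice of this group as wildtype without CreERT. The DISC1-Δ3 group held 3 libraries from NG2-CreERTM:DISC1 exon3 fl/+ mice, in which tamoxifen activates a Cre recombinase that removes exon 3 from 1 Disc1 allele. The presence of CreERT and the loss of the exon therefore cannot be told apart. Cre was driven by the promoter of NG2 (Cspg4), which is active in OPCs and, outside the oligodendrocyte lineage, also in pericytes. Nothing in the labels says whether the libraries of a group come from separate animals, so p-values measure the spread between these libraries.

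Collagens are trimers wound into a triple helix from chains rich in repeats of glycine, proline and hydroxyproline, and they are grouped by the structure they form. Fibrillar collagens build the fibrils of connective tissue and cartilage, collagen IV builds the network of basement membranes, and other classes coat fibrils, form beaded filaments or span the plasma membrane. In the brain most collagen lies in the basement membranes of blood vessels and in the meninges, and glial cells are known to express some chains themselves.

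The 6 libraries held 13716619 to 16417219 reads assigned to genes, so that 1 read was worth 0.0609 to 0.0729 CPM. Levels are given as RPKM, reads scaled to transcript length and library total. Differences are log2 fold changes, DISC1-Δ3 over wildtype, from edgeR's quasi-likelihood test on the counts. That test gives no standard error (SE), and the SE printed is the size of the fold change divided by the root of the F statistic. Adjusted p-values are those of that test with Benjamini-Hochberg adjustment over 13792 genes. A gene was tested when its RPKM was at least 0.5 in at least 3 libraries, and it is called higher or lower at an adjusted p under 0.05. Disc1 itself had an RPKM of 3.51, 3.34 and 3.81 in the wildtype libraries and of 2.86, 2.44 and 2.85 in the DISC1-Δ3 libraries, and it fell by 0.45 on the log2 scale (edgeR adjusted p = 0.000528). Counts per gene do not show the exon. The word OPCs below names the immunopanned preparation, whose libraries also held markers of other cell types. In wildtype libraries the summed RPKM of OPC markers was 402.1 to 412.7, and that of microglial markers was 6568 to 6762. Levels are therefore those of the preparation, and which cells a collagen transcript came from was not tested. Library 3 of the DISC1-Δ3 group stood somewhat apart: its counts differed from those of its group by a chi-square of 4.98 and 5.24 per gene compared, where the other pair had 2.65. Without it 12 of the 13 collagen genes called higher below were called again, together with Col3a1 (edgeR adjusted p = 0.0214), and Col6a6 could not be tested.

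Of the 44 collagen chain genes 31 were tested. In DISC1-Δ3 OPCs 13 of the 31 were higher (41.9%), 1 was lower, and 17 did not pass the test. Among all tested genes 20.4% were called higher and 19.5% lower, 39.9% in either direction. When libraries were scaled by the sum of their RPKM, which shifts the median of all genes upwards, these shares became 29.6% higher and 12.7% lower, and 17 collagen genes were higher and 1 lower. The median log2 fold change of the 31 genes was 0.22, against 0.01 over all tested genes, and 27 of the 31 had a value above 0. Col6a6 passed the filter on low values through the DISC1-Δ3 libraries alone. Without it, 12 of 30 genes were higher and the median was 0.21.

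A log2 fold change of at least 1 with a call was found for 6 collagen genes, Col6a6, Col23a1, Col12a1, Col11a1, Col18a1 and Col5a2, and for 2.76% of all tested genes. Without Col6a6 the collagen count is 5 of 30. RPKM did not overlap between the groups for 24 of the 31 tested collagen genes, with DISC1-Δ3 higher in 23, or 22 of 30 without Col6a6 (35.9% of all tested genes), and lower in 1 (16.1%). Genes called higher were found among both abundant and scarce chains, with a larger share and median among the scarce ones. Of 15 genes with a mean RPKM of at least 5, 5 were higher and 1 lower, and the median log2 fold change was 0.14. Of 16 tested genes under that level, 8 were higher, Col6a6 among them, and none was lower, and the median was 0.30.

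**Figure D1:**
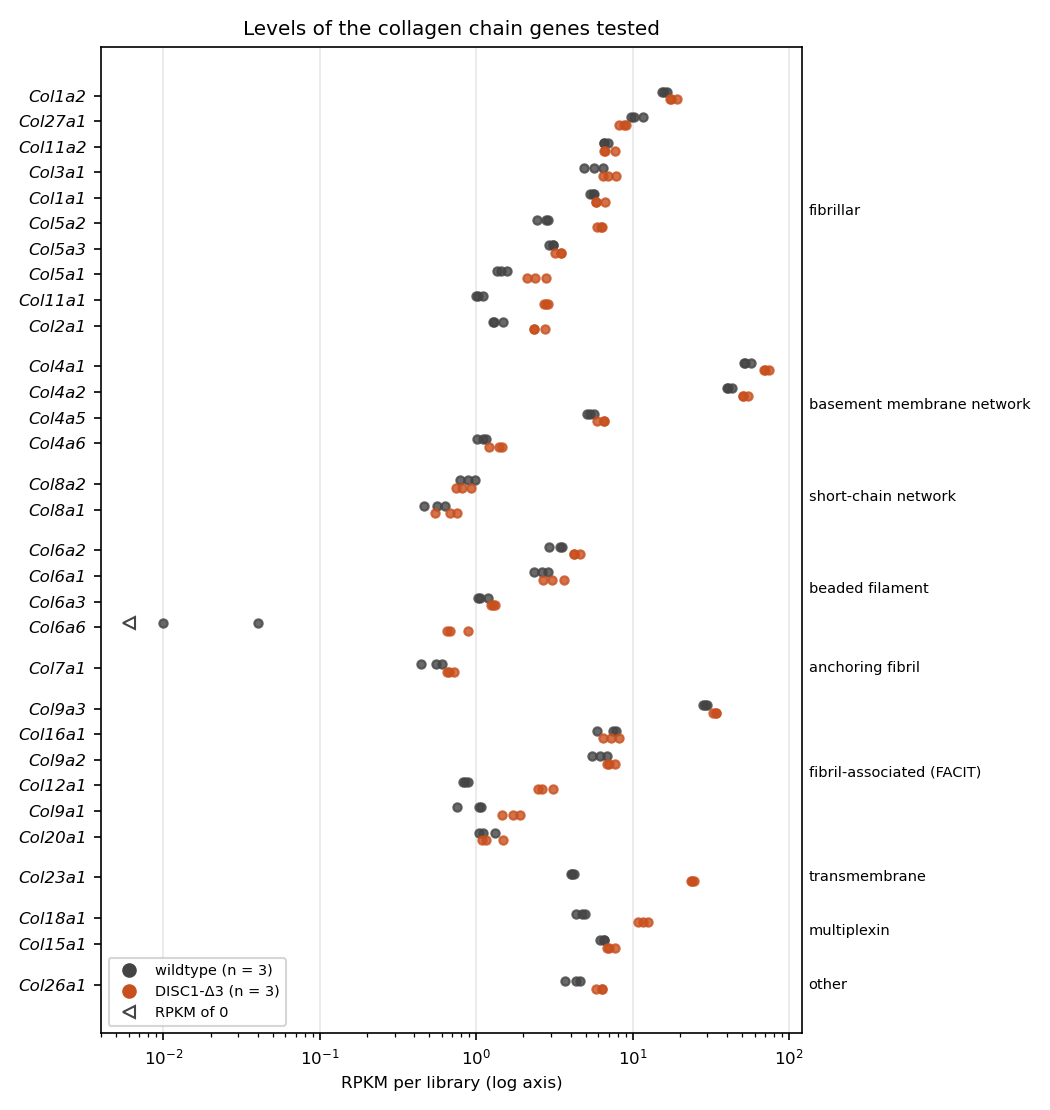
RPKM of the 31 tested collagen chain genes on a log axis, 1 point per library, with 3 wildtype libraries in grey and 3 DISC1-Δ3 libraries in orange, ordered by structural class. An open triangle marks an RPKM of 0. Col4a1 and Col4a2 lie farthest to the right in both groups, and the widest gaps between the groups are those of Col6a6 and Col23a1.

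Sequences around the transcript starts are shown for 5 genes, and they come from RefSeq (GRCm38.p6), which gives windows of 250 bases before to 50 bases after a start for 35 of the 44 genes. Col4a1 and Col4a2 are shown through the Col4a1 window because they are transcribed in opposite directions from starts 21 bases apart and both were higher. The Col4a1 window lies at chr8:11312777-11313076 on the minus strand, and capitals mark the 78 bases that are also in the Col4a2 window.
Col4a1: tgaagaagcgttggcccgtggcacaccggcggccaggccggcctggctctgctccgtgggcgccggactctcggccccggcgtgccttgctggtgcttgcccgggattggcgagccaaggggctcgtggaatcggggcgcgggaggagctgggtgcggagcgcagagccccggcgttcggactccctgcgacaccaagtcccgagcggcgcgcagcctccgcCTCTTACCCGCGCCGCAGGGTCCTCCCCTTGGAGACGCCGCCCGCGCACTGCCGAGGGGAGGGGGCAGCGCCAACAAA
Col23a1 and Col6a6 are shown as the genes with the largest differences, at chr11:51289670-51289969 on the plus strand and chr9:105828036-105828335 on the minus strand. In both, capitals mark the 50 bases from the annotated start.
Col23a1: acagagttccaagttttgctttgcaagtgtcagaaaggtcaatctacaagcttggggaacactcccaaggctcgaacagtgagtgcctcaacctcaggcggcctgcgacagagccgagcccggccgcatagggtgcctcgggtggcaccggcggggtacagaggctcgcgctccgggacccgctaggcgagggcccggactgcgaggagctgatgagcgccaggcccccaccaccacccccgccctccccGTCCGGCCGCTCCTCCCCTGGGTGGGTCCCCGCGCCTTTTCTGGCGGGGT
Col6a6: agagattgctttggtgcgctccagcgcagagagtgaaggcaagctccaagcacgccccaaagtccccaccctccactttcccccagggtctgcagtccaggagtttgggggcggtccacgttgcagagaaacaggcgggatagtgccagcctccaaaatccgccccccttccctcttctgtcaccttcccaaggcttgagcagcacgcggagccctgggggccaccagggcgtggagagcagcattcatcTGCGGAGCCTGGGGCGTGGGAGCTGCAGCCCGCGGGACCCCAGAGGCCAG
Windows were searched on both strands for the letters CTTTGNN with A or T at each N, which TCF/LEF factors of the Wnt pathway are known to bind, since the study concerns Wnt signalling. These letters occurred in 7 of the 38 windows of the 35 genes (18.4%) and in 16.9% of all 32851 windows. Of the 9 genes called higher that have a window 2 held them, and of the 15 tested and not called 3 did. Both of the higher genes with a match are shown with the match in capitals. They are Col9a1, at chr1:24177360-24177659 on the plus strand, and Col6a2, at chr10:76623581-76623880 on the minus strand, and each has a second window without a match.
Col9a1: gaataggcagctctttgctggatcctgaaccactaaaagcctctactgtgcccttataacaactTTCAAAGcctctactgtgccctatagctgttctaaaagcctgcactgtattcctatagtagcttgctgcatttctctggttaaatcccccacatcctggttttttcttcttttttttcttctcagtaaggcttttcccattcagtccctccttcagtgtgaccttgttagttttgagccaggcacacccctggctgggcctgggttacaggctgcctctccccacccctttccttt
Col6a2: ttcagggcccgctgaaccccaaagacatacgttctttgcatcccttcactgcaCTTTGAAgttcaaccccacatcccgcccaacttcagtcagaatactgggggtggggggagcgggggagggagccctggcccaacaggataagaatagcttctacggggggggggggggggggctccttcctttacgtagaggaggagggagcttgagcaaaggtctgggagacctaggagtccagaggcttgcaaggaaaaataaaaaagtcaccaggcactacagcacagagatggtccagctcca
The match starts 186 bases before the Col9a1 start and 197 bases before the Col6a2 start. A match describes these letters only.

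Collagen IV, the network of basement membranes, supplied the most abundant chains. Col4a1 and Col4a2 form its common trimer, and they ranked 1 and 2 of the 44 genes by mean RPKM in both groups. Col4a1 (gene 12826, chromosome 8) had an RPKM of 57.0, 51.8 and 51.6 in the wildtype libraries and of 74.1, 70.0 and 69.0 in the DISC1-Δ3 libraries. Every DISC1-Δ3 library lay above every wildtype library, and the gene rose by 0.33 (SE 0.048, edgeR adjusted p = 3.02e-05). Col4a2 (gene 12827) had an RPKM of 43.4, 40.9 and 40.3 in wildtype and of 54.1, 50.7 and 50.7 in DISC1-Δ3 OPCs. It too rose without overlap, by 0.24 (SE 0.046, edgeR adjusted p = 0.000426). The pair shares only 22 exonic bases, 0.29% of those of Col4a1, and the kit is not said to mark strand.

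Other collagen IV chains gave smaller or no signals. Col4a5 and Col4a6, neighbours on the X chromosome with 1274 bases between them, had log2 fold changes of 0.17 (edgeR adjusted p = 0.0710) and 0.22 (edgeR adjusted p = 0.208). Their RPKM did not overlap between the groups, at 5.11 to 5.61 against 5.91 to 6.59 for Col4a5 and 1.01 to 1.16 against 1.20 to 1.46 for Col4a6. Col4a3 and Col4a4, chains of the collagen IV of kidney and inner ear, were too low to test, with a mean RPKM of 0.07 and 0.28. Within a library the ratio of Col4a1 to Col4a2 in RPKM was 1.32, 1.27 and 1.28 for wildtype against 1.37, 1.38 and 1.36 for DISC1-Δ3 OPCs. The ratio of Col4a5 to Col4a1 went from 0.10 ± 0.00236 to 0.0897 ± 0.00555 (SD, n = 3 each). Neither ratio overlapped between the groups, and neither was tested.

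Multiplexins are basement membrane collagens with an interrupted helix. Col18a1 (gene 12822, chromosome 10), whose carboxy-terminal fragment is endostatin, had an RPKM of 4.76, 4.33 and 4.91 in wildtype and of 12.5, 10.7 and 11.6 in DISC1-Δ3 OPCs. The lowest DISC1-Δ3 library was far above the highest wildtype library, and Col18a1 rose by 1.22 (SE 0.078, edgeR adjusted p = 8.86e-10). Its rank by mean RPKM among the 44 genes went from 13 to 6. Col15a1, the other member of the class, had an RPKM of 6.53, 6.17 and 6.53 in wildtype and of 7.01, 6.88 and 7.69 in DISC1-Δ3 OPCs. These values did not overlap, but the log2 fold change of 0.10 did not pass the test (edgeR adjusted p = 0.265).

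Col23a1 (gene 237759, chromosome 11, 51289679 to 51583925) encodes a transmembrane collagen whose outer part can be shed from the cell. It had an RPKM of 4.23, 4.00 and 4.11 in the wildtype libraries and of 24.5, 23.7 and 23.8 in the DISC1-Δ3 libraries. The groups were far apart, each with little spread, and the gene rose by 2.46 (SE 0.058, edgeR adjusted p = 7.89e-16). The reads behind it were 322, 367 and 375 against 1941, 2134 and 2128. By mean RPKM it went from rank 15 to rank 4 of the 44 genes, and its share of the summed collagen RPKM went from 1.78% to 7.70%.

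None of the other transmembrane collagens passed the filter. Col13a1, a collagen of the neuromuscular junction, had an RPKM of 0.45, 0.36 and 0.34 in wildtype and of 0.64, 0.71 and 0.47 in DISC1-Δ3 OPCs. Col25a1, a collagen of neurons, had 0.20, 0.30 and 0.26 against 0.39, 0.35 and 0.45. Both were without overlap and higher in DISC1-Δ3 libraries, but in a fit without the filter neither passed (0.56, edgeR adjusted p = 0.169, and 0.55, edgeR adjusted p = 0.0787). Col17a1, a collagen of epithelial attachment, had 3 to 7 reads per library and overlapped.

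Fibrillar collagens gave 4 higher and 1 lower of 10 tested, with a median log2 fold change of 0.17. Of all tested genes 20.4% were called higher and 19.5% lower. The higher genes were chains of the collagens V, XI and II, which regulate or build thin fibrils. Col11a1 (gene 12814, chromosome 3), a chain of collagen XI of cartilage fibrils, had an RPKM of 1.0, 1.02 and 1.11 in wildtype and of 2.79, 2.72 and 2.85 in DISC1-Δ3 OPCs. It rose without overlap by 1.31 (SE 0.10, edgeR adjusted p = 1.69e-08). Col5a2 (gene 12832, chromosome 1), a chain of collagen V that starts the assembly of collagen I fibrils, had an RPKM of 2.89, 2.79 and 2.44 against 6.35, 6.23 and 5.90. It rose without overlap by 1.11 (SE 0.083, edgeR adjusted p = 7.97e-09). Col5a1 (gene 12831, chromosome 2), its partner chain, had an RPKM of 1.58, 1.35 and 1.44 in wildtype and of 2.38, 2.11 and 2.79 in DISC1-Δ3 OPCs. Col5a1 rose less, by 0.65 (SE 0.11, edgeR adjusted p = 0.000172), again without overlap. Col2a1 (gene 12824, chromosome 15), the main collagen of cartilage, had an RPKM of 1.27, 1.49 and 1.29 against 2.76, 2.35 and 2.32, and rose by 0.80 (SE 0.13, edgeR adjusted p = 7.13e-05).

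Col27a1 was the only collagen gene called lower under the filter and under each alternative tried. This fibrillar collagen of developing cartilage (gene 373864, chromosome 4) had an RPKM of 11.7, 10.1 and 9.73 in wildtype and of 8.79, 8.15 and 9.0 in DISC1-Δ3 OPCs. All 3 DISC1-Δ3 libraries lay below the wildtype ones, and it fell by 0.37 on the log2 scale (SE 0.064, edgeR adjusted p = 0.000146).

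The classical fibril collagens I and III did not pass. Col1a2 had an RPKM of 15.7, 15.5 and 16.6 in wildtype and of 19.1, 17.5 and 17.4 in DISC1-Δ3 OPCs, a log2 fold change of 0.09 (edgeR adjusted p = 0.204). Col1a1, the other chain of collagen I, had 5.53, 5.30 and 5.62 against 6.60, 5.78 and 5.83, a log2 fold change of 0.06 (edgeR adjusted p = 0.538). RPKM of both was without overlap. The ratio of Col1a1 to Col1a2 was 0.345 ± 0.00611 against 0.337 ± 0.00768 (SD, n = 3 each), and it overlapped. Col3a1, the collagen of vessel walls and soft tissue, had a log2 fold change of 0.24 just short of the threshold (edgeR adjusted p = 0.0538). It lies next to Col5a2 on chromosome 1, with 24624 bases between the genes. Col11a2 (0.00) and Col5a3 (0.07) did not pass either, and Col24a1 had 1 to 3 reads per library. Chain ratios within fibrillar trimers differed between the groups without overlap for Col5a1 to Col5a2, 0.540 ± 0.0534 against 0.395 ± 0.0694 (SD, n = 3 each). Col11a1 to Col5a1, chains that can share a trimer, went from 0.720 ± 0.0756 to 1.16 ± 0.134 (SD, n = 3 each), also without overlap and not tested.

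**Figure D2:**
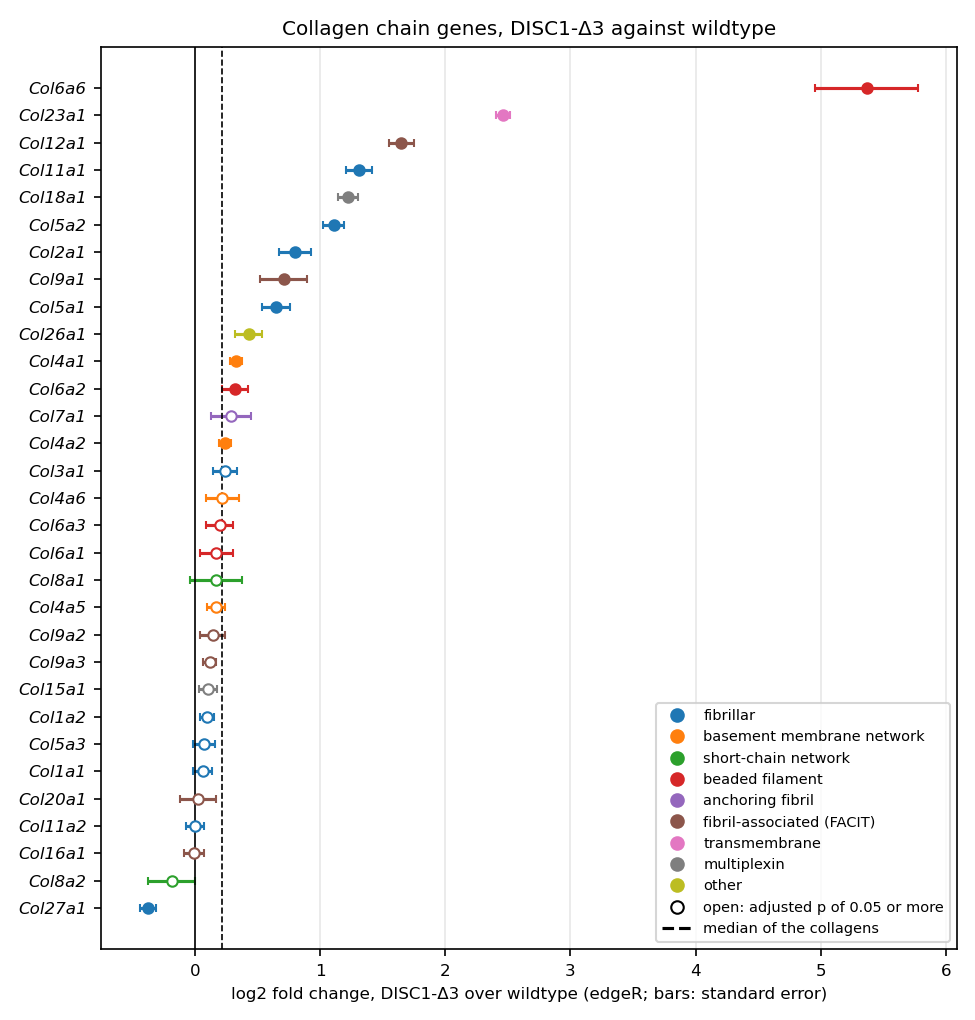
Log2 fold change of the 31 tested collagen chain genes, DISC1-Δ3 over wildtype, from edgeR, with the SE derived from its test as bars. The structural class is in colour. Filled points passed an adjusted p of 0.05, and the dashed line is the median of the collagens at 0.22. Filled points include 13 on the right of 0 and Col27a1 on its left.

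Collagens that coat fibrils, the fibril-associated class (FACIT), gave 2 higher genes of 6 tested, beside 20.4% of all tested genes. Col12a1 (gene 12816, chromosome 9), which binds the surface of collagen I fibrils, had an RPKM of 0.88, 0.85 and 0.82 in wildtype and of 2.49, 2.63 and 3.07 in DISC1-Δ3 OPCs. It rose without overlap by 1.65 (SE 0.099, edgeR adjusted p = 4.30e-10). Col9a1 (gene 12839, chromosome 1), a chain of collagen IX on cartilage fibrils, had 0.75, 1.04 and 1.07 against 1.46, 1.89 and 1.71. It rose by 0.71 (SE 0.18, edgeR adjusted p = 0.00532) on 32 to 60 reads in wildtype libraries.

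Both partner chains of Col9a1 were more abundant and did not pass. Col9a3, the third gene by level in both groups, had an RPKM of 30.0, 29.1 and 28.2 in wildtype and of 32.4, 34.2 and 33.9 in DISC1-Δ3 OPCs. These values did not overlap, and the log2 fold change was 0.12 (edgeR adjusted p = 0.0740). Of its exonic bases 6.07% are shared with Tcfl5 on the opposite strand, and the library kit is not said to mark strand, so that reads there cannot be told apart. Col9a2 overlapped between the groups (0.14, edgeR adjusted p = 0.282). The ratio of Col9a1 to Col9a2 was 0.122 to 0.189 in wildtype and 0.189 to 0.278 in DISC1-Δ3 OPCs, overlapping at their edge. Col16a1 had an RPKM of 7.44, 5.86 and 7.79 against 8.12, 6.49 and 7.27, which overlapped (−0.01, edgeR adjusted p = 0.955). Col20a1 had a log2 fold change of 0.02, and Col14a1, Col19a1 and Col22a1 were too low to test.

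Collagen VI, which forms beaded microfilaments near basement membranes, had 2 higher genes of 4 tested, Col6a6 and Col6a2. Of all tested genes 20.4% were called higher. Col6a6 passed the filter through the DISC1-Δ3 libraries alone, and without it only Col6a2 was called in this class. Col6a6 (gene 245026, chromosome 9, 105689417 to 105828246), a chain that can take the place of Col6a3 in the trimer, had an RPKM of 0.00, 0.04 and 0.01 in wildtype and of 0.68, 0.65 and 0.88 in DISC1-Δ3 OPCs. The reads were 0, 4 and 1 against 66, 73 and 95. From the summed reads the DISC1-Δ3 level was 44.2 times the wildtype level, with an exact 95% interval of 18.7 to 137.4 that covers counting error only. The fitted log2 fold change was 5.37 (SE 0.41, edgeR adjusted p = 1.04e-08), and the gene went from the lowest of the 44 to rank 29. This SE follows from the test statistic and does not measure the counting error of so few wildtype reads. The size rests on few wildtype reads, with 4.89, 6.85 and 5.08 when wildtype library 1, 2 or 3 was left out. On log2(RPKM + 0.1) and log2(RPKM + 1) limma gave 2.85 and 0.77, and without any one of the DISC1-Δ3 libraries the gene did not pass the filter. Its tandem neighbours Col6a5 and Col6a4, with 27823 and 27854 bases between the genes, had 0 to 8 reads per library and overlapped between the groups.

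Col6a2 (gene 12834, chromosome 10), a core chain of collagen VI, had an RPKM of 2.90, 3.52 and 3.42 in wildtype and of 4.57, 4.23 and 4.23 in DISC1-Δ3 OPCs. It rose without overlap by 0.32 (SE 0.11, edgeR adjusted p = 0.0209). This call was lost without wildtype library 1 (0.24, edgeR adjusted p = 0.104), without DISC1-Δ3 library 1 (0.27, edgeR adjusted p = 0.0830) and with DESeq2 (0.32, adjusted p = 0.0605). Col6a1, the second core chain, had 2.63, 2.32 and 2.89 against 3.63, 2.68 and 3.05, which overlapped (0.17, edgeR adjusted p = 0.322). For Col6a3, the third, the log2 fold change was 0.20 (edgeR adjusted p = 0.167). The ratios of Col6a1 to Col6a2 and of Col6a3 to Col6a1 overlapped between the groups.

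Col26a1 (gene 140709, chromosome 5), a secreted protein with collagen stretches described in testis and ovary, had an RPKM of 4.59, 4.35 and 3.68 in wildtype and of 6.36, 6.37 and 5.81 in DISC1-Δ3 OPCs. It rose without overlap by 0.43 (SE 0.11, edgeR adjusted p = 0.00369). Col28a1, a collagen of peripheral nerve, had 0.17, 0.28 and 0.22 against 0.42, 0.28 and 0.18 and was not tested. Col7a1, which forms the anchoring fibrils of skin, had 0.60, 0.55 and 0.44 against 0.65, 0.67 and 0.72 (0.29, edgeR adjusted p = 0.162). The short-chain collagens of vessel and corneal membranes overlapped between the groups. For Col8a2 the RPKM was 0.98, 0.89 and 0.79 against 0.92, 0.81 and 0.74 (−0.19, edgeR adjusted p = 0.457). Col8a1 had 0.63, 0.56 and 0.46 against 0.75, 0.54 and 0.68 (0.17, edgeR adjusted p = 0.560). Col10a1, the collagen of hypertrophic cartilage, had 1 to 3 reads per library. In all, 13 genes were too low to test, with a mean RPKM of 0.02 to 0.495, and none of them passed in a fit without the filter.

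Summed over the 44 genes, RPKM was 240.7, 224.4 and 227.9 in the wildtype libraries and 322.8, 303.0 and 308.2 in the DISC1-Δ3 libraries, 231.0 ± 8.61 against 311.3 ± 10.3 (SD, n = 3 each). The DISC1-Δ3 sum was 1.35 times the wildtype sum, in RPKM as deposited, and 1.36 times in summed CPM. Basement membrane chains made up 44% of the wildtype sum and 42.0% of the DISC1-Δ3 sum. Transmembrane collagens, nearly all Col23a1, went from 4.82 ± 0.132 to 25.0 ± 0.453 (SD, n = 3 each). Ratios of the class sums were 1.70 for multiplexins, 1.46 for Col26a1 with Col28a1, 1.35 for beaded filaments, 1.29 for basement membrane chains, 1.28 for Col7a1, 1.19 for fibrillar, 1.18 for FACIT and 1.02 for short-chain collagens. Only the short-chain sums overlapped between the groups. A sum carries no test here, and RPKM does not correct for a shift in the makeup of the libraries.

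**Figure D3:**
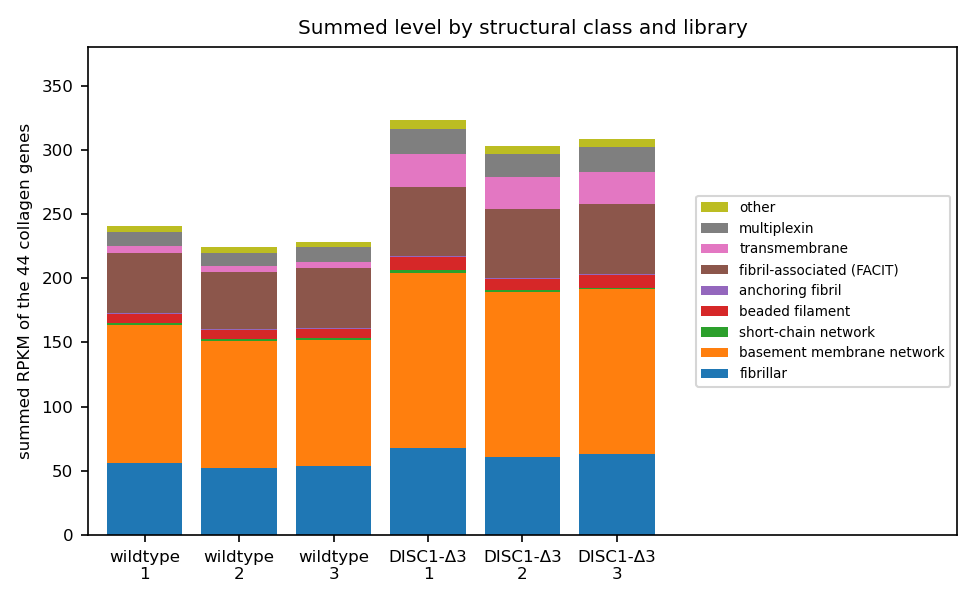
Summed RPKM of the 44 collagen chain genes in each library, stacked by structural class, with a linear axis from 0. Bars of the 3 DISC1-Δ3 libraries reach 303.0 to 322.8 and those of the 3 wildtype libraries 224.4 to 240.7, and the transmembrane layer is wider in DISC1-Δ3 libraries.

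Genes that make, move, bind or cut collagen were called in both directions. Over 7 lists of such genes, 69 were tested, 16 were higher and 11 lower, and the median log2 fold change was −0.01. The share called higher, 23.2%, is near the 20.4% of all tested genes, of which 19.5% were called lower. With RPKM sums 22 were higher and 5 lower, and 11 were higher without wildtype library 2 and 7 lower without wildtype library 3. The 16 include Itga10, which passed the filter through the DISC1-Δ3 libraries alone. With a filter on the mean RPKM over all libraries, which Itga10 did not pass, 15 were higher and 11 lower. Of 19 genes that hydroxylate, glycosylate and fold collagen 3 were higher and 6 lower, with a median of −0.08. Colgalt2, a galactosyltransferase for hydroxylysine, went from a mean RPKM of 3.69 to 7.82 and rose by 1.0 (edgeR adjusted p = 2.23e-08). Its paralog Colgalt1, the more abundant at 77.9 against 63.8, fell by 0.37 (edgeR adjusted p = 3.08e-06). Among lysyl hydroxylases Plod1 fell by 0.37 from 97.8 to 80.0 (edgeR adjusted p = 1.12e-05), whereas Plod2 rose by 0.39 from 3.26 to 4.52 (edgeR adjusted p = 0.00960, and 0.0747 without DISC1-Δ3 library 2). Serpinh1, the collagen chaperone HSP47, rose by 0.36 from 75.8 to 102.8 (edgeR adjusted p = 6.29e-05). P3h2, a prolyl 3-hydroxylase, fell by 0.35 (edgeR adjusted p = 0.0157). This call was lost with RPKM sums (0.0610) and without wildtype library 2 (0.0624) or 3 (0.0907). It was also lost with both limma fits (limma adjusted p = 0.0579 and 0.0572).

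Of 10 genes of collagen secretion 2 were higher (20%, near the 20.4% of all tested genes) and none lower, with a median of −0.03. They were Klhl12, an adaptor for large COPII carriers (0.67, edgeR adjusted p = 0.000444), and Sec23a, a COPII coat protein (0.29, edgeR adjusted p = 0.00142). None of 5 tested procollagen processing genes passed, and their median was 0.04. Of 5 crosslinking genes 2 were higher, with a median of 0.09. Pxdn, which crosslinks collagen IV, rose by 0.26 (edgeR adjusted p = 0.0157), but not without wildtype library 2 (0.0802) or DISC1-Δ3 library 3 (0.0582). Loxl2, a lysyl oxidase, rose by 0.38 (edgeR adjusted p = 0.0230). It lost the call with DESeq2 (adjusted p = 0.0808), and in edgeR without each library other than DISC1-Δ3 library 3 (0.0592 to 0.0977).

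Of 11 collagen receptors 5 were higher, Itga10 among them, and 3 lower, with a median of 0.11. Of all tested genes 20.4% were called higher and 19.5% lower. Cd44 (0.51, edgeR adjusted p = 0.000124) and the integrin chain Itga1 (0.42, edgeR adjusted p = 0.0101, and 0.0546 without wildtype library 2) rose. Itga10, another collagen-binding integrin chain, passed the filter through the DISC1-Δ3 libraries alone (0.60, edgeR adjusted p = 0.0394) and lost its call in 8 of the 10 alternatives that tested it. Lair1, an inhibitory receptor of immune cells, fell by 0.55 (edgeR adjusted p = 1.63e-07). Adgrg1, a receptor for collagen III, fell by 0.19 (edgeR adjusted p = 0.00188). Itgb1, the integrin chain common to both alpha chains above, fell by 0.16 with overlapping RPKM (edgeR adjusted p = 0.00690). This call was lost with RPKM sums (0.215) and with both limma fits (limma adjusted p = 0.194 and 0.197).

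Of 12 collagen-binding matrix genes 3 were higher (25%, near the 20.4% of all tested genes) and 2 lower, with a median of 0.10. Bgn, a small proteoglycan, rose by 0.40 (edgeR adjusted p = 1.63e-05) and Fn1 by 0.20 (edgeR adjusted p = 0.00166). The nidogens, which link collagen IV to laminin, went opposite ways. Nid1 rose by 0.22 (edgeR adjusted p = 0.00302) and Nid2 fell by 0.38 (edgeR adjusted p = 1.50e-05). Sparc, at a mean RPKM of 1507 and 1469, fell by 0.12 with overlap (edgeR adjusted p = 0.0286). It lost the call with RPKM sums (0.445) and without any one of 4 libraries (0.0622 to 0.135). Both limma fits lost it too (limma adjusted p = 0.439 and 0.428). Of 7 tested genes of collagen degradation only Mmp14, a membrane-bound collagenase, was higher, by 0.42 (edgeR adjusted p = 6.45e-07).

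**Figure D4:**
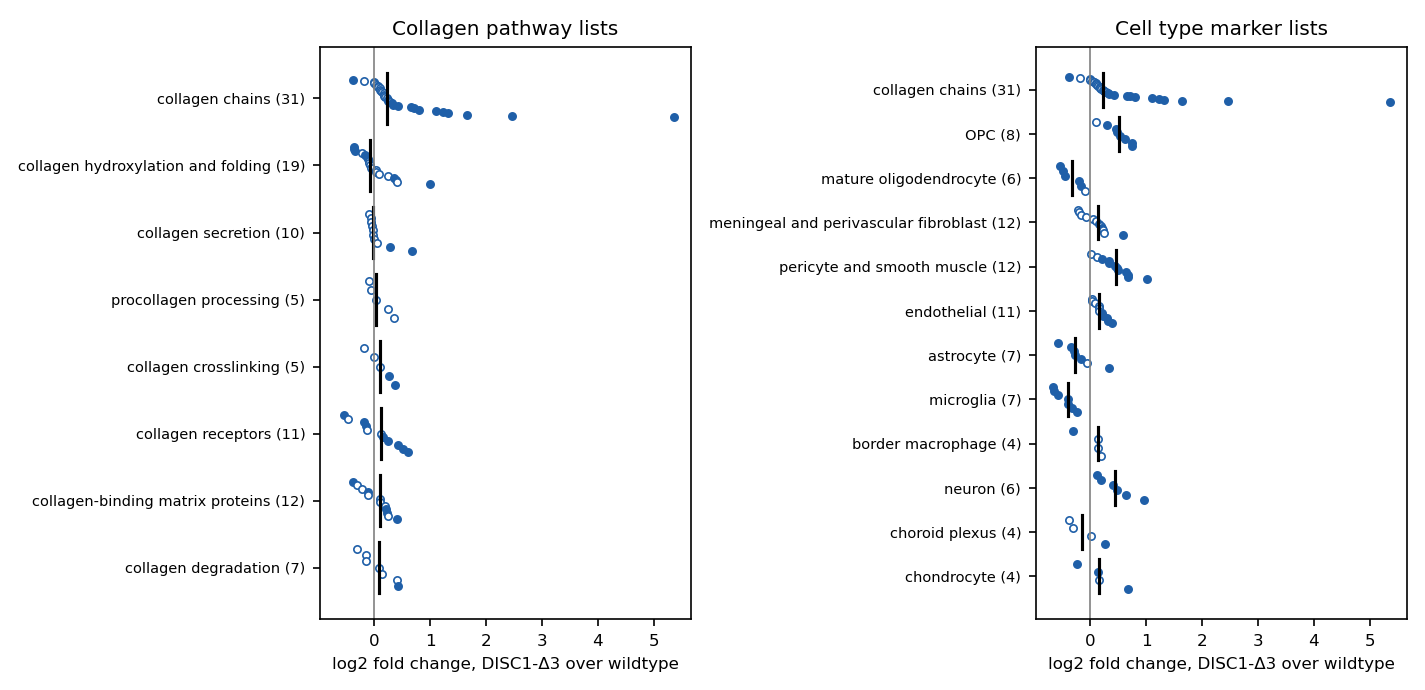
Log2 fold changes, DISC1-Δ3 over wildtype, of the tested collagen chain genes beside those of the collagen pathway lists (left) and of cell type marker lists (right), 1 point per gene, with the number tested in parentheses. Filled points passed an adjusted p of 0.05 and black bars are medians, which are 0.22 for collagen chains, 0.51 for OPC and 0.46 for pericyte and smooth muscle markers.

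Cells other than OPCs also make collagen, and their markers were measured in the same libraries. In bulk RNA more cells of a type and more RNA per cell cannot be told apart. The counts of markers below stand beside 20.4% of all tested genes called higher and 19.5% called lower. Markers of pericytes and smooth muscle, the cells around vessels, were higher for 10 of 12 genes, with a median of 0.46, and their summed RPKM was 178.7 to 188.1 in wildtype and 249.7 to 259.5 in DISC1-Δ3 OPCs. Pdgfrb rose by 0.21 (edgeR adjusted p = 0.00324) and Rgs5 by 0.50 (edgeR adjusted p = 3.60e-07). Endothelial markers were higher for 5 of 11, with a median of 0.16 and sums of 186.3 to 200.8 against 244.6 to 249.2. Cldn5 rose by 0.39 (edgeR adjusted p = 1.57e-05), and Pecam1 had 0.04 (edgeR adjusted p = 0.669). Meningeal and perivascular fibroblast markers were higher for 3 of 12 (25%, near the share of all tested genes), with a median of 0.13. Their sums were 84.9 to 86.1 against 101.7 to 113.4. Dcn had 0.24 (edgeR adjusted p = 0.351) and Lum 0.10 (edgeR adjusted p = 0.815). None of the genes of these 3 lists was at 0 reads in any library. Their part in the collagen differences was not tested.

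OPC markers were higher for 7 of 8, with a median of 0.51 and sums of 402.1 to 412.7 against 537.8 to 577.4, Pdgfra by 0.48 (edgeR adjusted p = 2.42e-07) and Cspg4 by 0.46 (edgeR adjusted p = 1.15e-05). Chondrocyte markers, listed because collagens II, IX and XI belong to cartilage, passed higher in 2 cases and lower in 1, of 4 genes tested. Acan rose from 0.70 to 0.76 RPKM in wildtype to 1.14 to 1.36 in DISC1-Δ3 OPCs (0.66, edgeR adjusted p = 0.0010). Sox9 rose by 0.14 (edgeR adjusted p = 0.0271), Hapln1 fell by 0.23 with overlapping RPKM (edgeR adjusted p = 0.0380), and Cnmd did not pass. Matn3 was at 0 reads in 1 wildtype and 2 DISC1-Δ3 libraries, and Matn1 and Comp were too low to test. RPKM of Comp was lower without overlap, at 0.35, 0.61 and 0.40 in wildtype against 0.25, 0.19 and 0.30. Microglial markers were lower for 7 of 7, with a median of −0.39, and their sums of 6568 to 6762 against 4601 to 4757 exceeded those of the OPC markers. Neuron markers were higher for 6 of 6 (median 0.44). Mature oligodendrocyte markers were lower for 5 of 6 (median −0.32). Of these Mbp lost its call with RPKM sums (edgeR adjusted p = 0.0605) and with both limma fits (limma adjusted p = 0.0909 and 0.0837). Astrocyte markers were lower for 5 and higher for 1 of 7 (median −0.28). Of 4 border macrophage markers 1 was lower (median 0.14), and of 4 choroid plexus markers 1 was higher (median −0.15). Of all tested genes 20.4% were called higher and 19.5% lower. The part of these cell types was not tested.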

How the data were processed

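RNA of immunopanned OPCs from 3 wildtype and 3 DISC1-Δ3 samples was purified with oligo(dT) and sequenced as single-end reads. The submitters' processing notes name Bowtie2 2.2.5 and mm10, and the paper names DESeq2. The counter and the annotation are not given in the sources used here. The authors deposited expected counts per gene, where a read that matches several genes is shared out (90.2% of values above 0 are whole within 1e-09). The authors also deposited RPKM, which divide counts by transcript length and by the total of the library. The transcript length implied by counts and RPKM differed between libraries for some genes, by up to 1.18 times for Col9a1, 1.13 for Col16a1 and 1.12 for Col26a1, which enters their RPKM and chain ratios. The 4 columns of group averages were not used.

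Collagen genes were found by symbol. Members, lists and alternatives were chosen with earlier results of these data known. Rounded counts of 13792 genes (RPKM reaching 0.5 in 3 or more of 6 libraries) were tested with edgeR 4.0.16 (quasi-likelihood, TMM, two-sided, genotype only) in R 4.3.3, with Benjamini-Hochberg adjustment and a threshold of 0.05. TMM factors were 0.970 to 1.04, and the biological coefficient of variation was 5.44%. On simulated data of 13792 genes, of which 200 were set to differ, edgeR recovered 192 (96.0%), and 5.88% of its calls were unchanged genes. In the measured libraries 5498 genes were called, with a median size of the log2 fold change of 0.38. Recovery of differences under 1, with that many differing genes, or separately by the size of the difference, was not tested. Alternatives were DESeq2 1.42.0, limma 3.58.1 on log2(RPKM + 1) and log2(RPKM + 0.1), other scalings and filters, a replicate block, and each library left out. A filter on the mean RPKM over all libraries was added after seeing the data.

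Every collagen gene could be named. Values per library are given for called genes and the 2 most abundant of each class, and the 3 largest rises and falls past the threshold in each pathway list and defining markers are named. Chain ratios are of RPKM within a library. Gene positions and promoter windows are those of RefSeq on GRCm38, the assembly of mm10, and shared exonic bases are those of GENCODE. Since reads carry no molecular identifiers they may repeat a molecule, and intervals cover counting error only.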

Additional observations from a re-analysis of the deposited data

How the results depend on the processing

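Of the 14 collagen chain genes called, 12 were tested under all 15 alternatives and kept their call and direction in each. Col6a6 kept its call in the 10 alternatives that tested it, and Col6a2 lost its call in 3, as given above. Across alternatives 11 to 17 collagen genes were higher, 1 was lower, and the median log2 fold change was 0.14 to 0.31. The count of 17 came from scaling by RPKM sums and from limma with either pseudocount, where Col1a2, Col3a1, Col4a5 and Col9a3 passed (adjusted p of 0.0159, 0.0177, 0.0139 and 0.00544 with RPKM sums). Col3a1 also passed with no filter (0.0292), with the replicate block (0.0177), without wildtype library 1 (0.0174), without DISC1-Δ3 library 2 (0.0368) and without DISC1-Δ3 library 3 (0.0214). The replicate block gave 14 collagen genes higher and 1 lower. Deviations of same-numbered libraries had correlations of −0.03 to 0.04 across genes, and those of other pairs had −0.05 to 0.03. The labels do not say whether the numbers pair libraries, and with 3 libraries a group these correlations cannot decide it. Itga10 lost its call under the block (0.0564).

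Some genes close to 0 changed sign. For Col11a2 the log2 fold change was 0.0840 with RPKM sums and 0.0530 and 0.0595 with limma at pseudocounts of 1 and 0.1, and for Col16a1 it was 0.0800, 0.0502 and 0.0571. Leaving out 1 library at a time, values ran from −0.0751 to 0.0329 for Col11a2, −0.0814 to 0.0413 for Col16a1, −0.0158 to 0.0977 for Col1a1, −0.112 to 0.119 for Col20a1 and −0.193 to 0.225 for Lum. Collagen pathway genes called lower, 11 as reported, were 5 with RPKM sums and with both limma fits, and 7 to 14 with a library left out. The cause was not tested. The 13 collagen genes that failed the filter had low levels. That none passed in a fit without the filter does not show that they were unchanged, and Col13a1 and Col25a1 among them were higher without overlap. With 3 libraries a group, all tests are limited to the spread among them.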

Other observations

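Proteins that hold a collagen stretch without being collagen chains were collected after the values had been seen. The deposited values hold 32 such genes, of which 21 were tested, 7 were higher and 5 lower, and the median log2 fold change was 0.08. The share higher was 33.3%, and it includes Colq and C1qtnf7, which passed the filter through the DISC1-Δ3 libraries alone. Among all tested genes 20.4% were called higher and 19.5% lower. Colq, the collagen tail that anchors acetylcholinesterase, had an RPKM of 0.32, 0.20 and 0.13 in wildtype and of 1.94, 2.24 and 2.43 in DISC1-Δ3 OPCs. It passed the filter through the DISC1-Δ3 libraries alone, and the groups did not overlap (3.51, SE 0.28, edgeR adjusted p = 1.72e-08). C1ql1, a C1q-like protein made by OPCs, rose from 22.7 to 26.4 RPKM in wildtype to 39.4 to 45.9 in DISC1-Δ3 OPCs (0.74, edgeR adjusted p = 1.47e-06). Other genes called higher were C1qtnf7 (1.30), which passed the filter in the same way as Colq, C1qtnf12 (0.70), C1qtnf4 (0.53), Emid1 (0.43) and Cthrc1 (0.38).

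The genes called lower were mostly those of phagocytes. C1qa, C1qb and C1qc, the chains of the complement protein C1q, which microglia make, fell by 0.67, 0.69 and 0.60 on the log2 scale (edgeR adjusted p = 1.65e-09, 8.67e-10 and 7.22e-09). Msr1, a scavenger receptor of macrophages, fell by 0.82 (edgeR adjusted p = 0.000408) and Scara3 fell by 0.21 (edgeR adjusted p = 0.00853). C1qa is itself 1 of the 7 microglial markers, all of which were lower.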
